A study of Mus musculus with 4 samples.

Results

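The circadian clock genes described here are 10 genes of the core clock and its direct outputs, Per1, Per2, Per3, Dbp, Nr1d1, Nr1d2, Tef, Wee1, Clock and Cry1. They were taken by symbol from the array annotation, using every probe set that is assigned exactly 1 gene. All 10 were on the array, with 12 probe sets of the 12422 that are not controls and 10 genes of the 8251 that could be named. Cry1 had 3 probe sets and each other gene 1. The samples were 4 single-channel oligonucleotide arrays, each hybridised with total RNA of the hippocampal dentate gyrus, the field of granule cells. The mice were young C57BL/6J males that had been handled and not otherwise treated. There was 1 array at each of 1, 2, 4 and 6 h, counted from the last shock given to other mice of the study, which were not analysed here. The labels give neither the time of day nor the light schedule of these hours, nor how many mice gave each RNA, so hours below are hours after that shock and not phases of the day. Because each hour had 1 array, no replicate error can be given for a difference between hours, and the spread over hours is shown instead.

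In the mammalian clock, the transcription factor CLOCK pairs with BMAL1, the product of Arntl, and switches on the Per and Cry genes, whose proteins return to the nucleus and block CLOCK and BMAL1. A second loop runs through Nr1d1 and Nr1d2, which encode the REV-ERB nuclear receptors, repressors of Arntl, Clock and Cry1. Dbp and Tef encode related leucine zipper factors that carry the rhythm to output genes, and Wee1 encodes a kinase that holds back entry into mitosis and is a clock target in mouse liver. In the brain outside the hypothalamic pacemaker these genes also cycle, and Per1 is in addition induced by glucocorticoids and by neuronal activity.

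The promoters of the clock genes carry the short sites through which these loops act, and the promoters with such a site are shown here because the genes below are grouped by those loops. Sequences are from a set of RefSeq promoters on GRCm38.p6. The set used here held 12 transcript starts for 8 of the 10 genes and lacked Per2 and Wee1. The 250 bases before each start were searched on both strands for the E-box CACGTG, bound by CLOCK and BMAL1, its variant CACGTT, the D-box TTATGTAA or TTATGCAA, bound by DBP and TEF, the cAMP response element TGACGTCA, and the site TAGGTCA, bound by REV-ERB and ROR receptors. Capitals mark the matches, none of which overlap.
Per1 (chr11:69098699-69098948, plus strand): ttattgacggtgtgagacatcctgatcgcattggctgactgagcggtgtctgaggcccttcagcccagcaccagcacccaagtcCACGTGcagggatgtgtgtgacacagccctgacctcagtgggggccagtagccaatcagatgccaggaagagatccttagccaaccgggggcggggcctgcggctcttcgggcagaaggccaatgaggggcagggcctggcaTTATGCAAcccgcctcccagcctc
Per3 (chr4:151044666-151044915, minus strand): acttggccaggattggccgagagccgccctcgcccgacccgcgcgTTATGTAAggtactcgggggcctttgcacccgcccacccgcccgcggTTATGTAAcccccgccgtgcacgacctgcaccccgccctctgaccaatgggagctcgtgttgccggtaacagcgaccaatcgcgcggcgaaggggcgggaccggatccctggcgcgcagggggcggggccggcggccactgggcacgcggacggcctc
Nr1d1 (chr11:98775378-98775627, minus strand): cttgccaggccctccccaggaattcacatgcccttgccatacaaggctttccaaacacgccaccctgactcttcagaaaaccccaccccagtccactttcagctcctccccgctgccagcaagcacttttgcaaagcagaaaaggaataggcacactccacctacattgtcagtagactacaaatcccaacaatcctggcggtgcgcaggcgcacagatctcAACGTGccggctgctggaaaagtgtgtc
Tef (chr15:81802423-81802672, plus strand): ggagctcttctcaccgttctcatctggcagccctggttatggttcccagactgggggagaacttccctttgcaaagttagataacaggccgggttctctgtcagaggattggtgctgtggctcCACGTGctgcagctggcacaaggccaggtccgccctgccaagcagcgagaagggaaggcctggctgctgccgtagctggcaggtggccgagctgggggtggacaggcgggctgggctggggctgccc
Cry1 (chr10:85185055-85185304, minus strand): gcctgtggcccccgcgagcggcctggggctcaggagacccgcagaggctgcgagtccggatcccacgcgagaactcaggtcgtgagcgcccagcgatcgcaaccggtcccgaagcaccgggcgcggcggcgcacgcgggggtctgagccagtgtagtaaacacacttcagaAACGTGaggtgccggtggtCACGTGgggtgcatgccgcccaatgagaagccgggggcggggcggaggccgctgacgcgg
Of 32851 promoter windows of the same length in the table, CACGTG was present in 6.02%, CACGTT in 3.85%, TTATGTAA in 0.819%, TTATGCAA in 0.694%, TGACGTCA in 1.55% and TAGGTCA in 2.23%. Among the clock genes the E-box was found in Per1, Tef and Cry1, its variant in Nr1d1 and Cry1, and D-boxes in Per1 (1 copy) and Per3 (2 copies). The second start of Tef also held an E-box. No match was found in the windows of Dbp, Nr1d2 or Clock, which says only that these letters are not within that distance of the annotated starts.

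**Figure D1:**
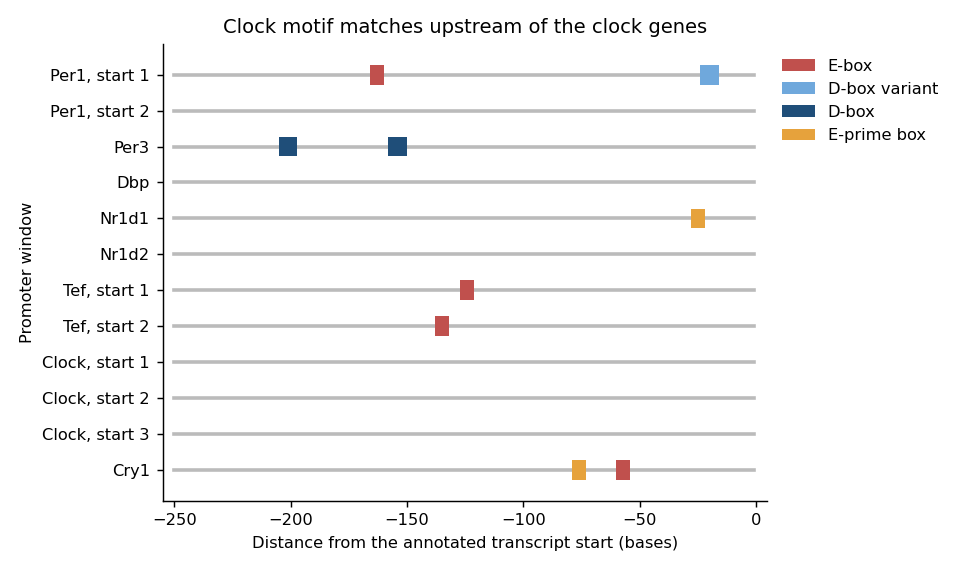
Motif matches in the 250 bases before each annotated transcript start of the clock genes, plotted by distance from the start in bases. Each grey line is 1 promoter window and each coloured block 1 match, and the windows of Per1 (first start), Per3, Nr1d1, Tef and Cry1 hold the matches.

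The 1 h array stood apart from the later arrays, which bears on every value below. The 3' control probe set of Gapdh was 4.88 times as bright as the 5' one in the 1 h array, a ratio of 1.13, 1.33 and 1.24 in the later arrays. For beta-actin this ratio differed less, at 2.51, 1.83, 2.20 and 1.97 over the hours. Pearson's r across probe sets was 0.92 to 0.93 with the 1 h array and 0.957 to 0.964 among the others. Granule cell markers were present, with 8 of 11 genes on the array and 8 of 10 probe sets kept for testing, led by Calb1 at 2033, 2052, 2323 and 2375 at 1, 2, 4 and 6 h. Of genes that mark the hypothalamus, Six6 read 10.4 to 14.2, under the floor of 16.4 to which low values were set, and Avp 31.4 to 83.9, too dim to be tested. Lhx1 read 177, 87.2, 44.1 and 49.6 at 1, 2, 4 and 6 h and was also too dim, while Oxt read 336 to 465 and was tested. The transcription factor Prox1, which defines granule cells, was dim at 71.6 in the 1 h array and read 155 to 278 in the later ones.

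The Per genes did not share a pattern over the hours. Per1, a repressor of CLOCK and BMAL1, had an intensity of 303, 156, 374 and 517 at 1, 2, 4 and 6 h. It was lowest at 2 h and highest at 6 h, and the 1 h value lay between those of 2 h and 4 h. The 6 h value was 3.32-fold the 2 h value, a span between highest and lowest array that 5.19% of the 7453 tested probe sets reached, and 2.07% over the 2, 4 and 6 h arrays alone. Per2, its close relative, read 165, 229, 111 and 116, and so was highest in the array in which Per1 was lowest. Its highest value was 2.06-fold its lowest, which 17% of tested probe sets reached. Per3, a further relative with a smaller part in the feedback, read 303, 242, 212 and 269, and its span of 1.43-fold was reached by 53.5% of tested probe sets.

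Dbp and Tef, outputs of the same class, differed from each other as well. Dbp read 708, 312, 424 and 702 at 1, 2, 4 and 6 h. Its 1 h and 6 h values were almost equal, its 2 h value was 0.441 of that at 1 h, and it shared with Per1 the low value at 2 h and higher values at 4 h and 6 h. Tef read 2701, 5516, 5092 and 5317, with the 1 h array alone low. Between the 2, 4 and 6 h arrays Tef differed by at most 1.08-fold, against 2.25-fold for Dbp. Wee1 read 31.9, 161, 136 and 152 and was low in the same array as Tef. Its mean log2 intensity exceeded the threshold for testing by only 0.0011, and without the 1 h array its span was 1.19-fold. The part of the high Gapdh ratio at 1 h in the low values of Tef and Wee1 was not tested.

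The REV-ERB genes also parted. Nr1d1 read 767 at 1 h and 368, 352 and 328 at 2, 4 and 6 h, so that the 1 h array was more than 2-fold above each later array. The later arrays lay within 1.12-fold of each other, a span that 80.2% of tested probe sets reached. Nr1d2, the second receptor of the pair, read 468, 397, 471 and 494, the narrowest span of the tested clock probe sets at 1.24-fold, which 78.5% of tested probe sets reached. Relative to the mean of the 3 others, the 1 h array was higher by 1.14 on the log2 scale for Nr1d1 and by 0.049 for Nr1d2.

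Clock and Cry1 had lower values at each later hour. Clock, the activator, read 365, 337, 242 and 220 at 1, 2, 4 and 6 h. Cry1, which joins the Per proteins in the repressor, read 813, 541, 518 and 483 on its brightest probe set. The identifier of that probe set ends in _f_at, which marks it as able to match related sequences. Its 2, 4 and 6 h values lay within 1.12-fold of each other, a span that 81% of tested probe sets reached. Those of Clock spanned 1.53-fold, which 23.2% reached. The 2 other probe sets of Cry1 were dim, at 41, 29.2, 9.7 and 4.7 for 1 and 39, 12.9, 5.4 and 3.1 for the other, with 2 and 3 of their arrays under the floor of 16.4, and neither was tested. All 3 probe sets of Cry1 thus ran in the same order. The number of probe sets under the floor ran the other way, at 1056, 1179, 1248 and 1462 of 12422 over the hours, and its part in the dim Cry1 values was not tested. Together with Nr1d1, 3 of the 10 tested clock probe sets ran strictly downward over the 4 arrays and 0 strictly upward, where 5.98% and 4.44% of all tested probe sets did.

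**Figure D2:**
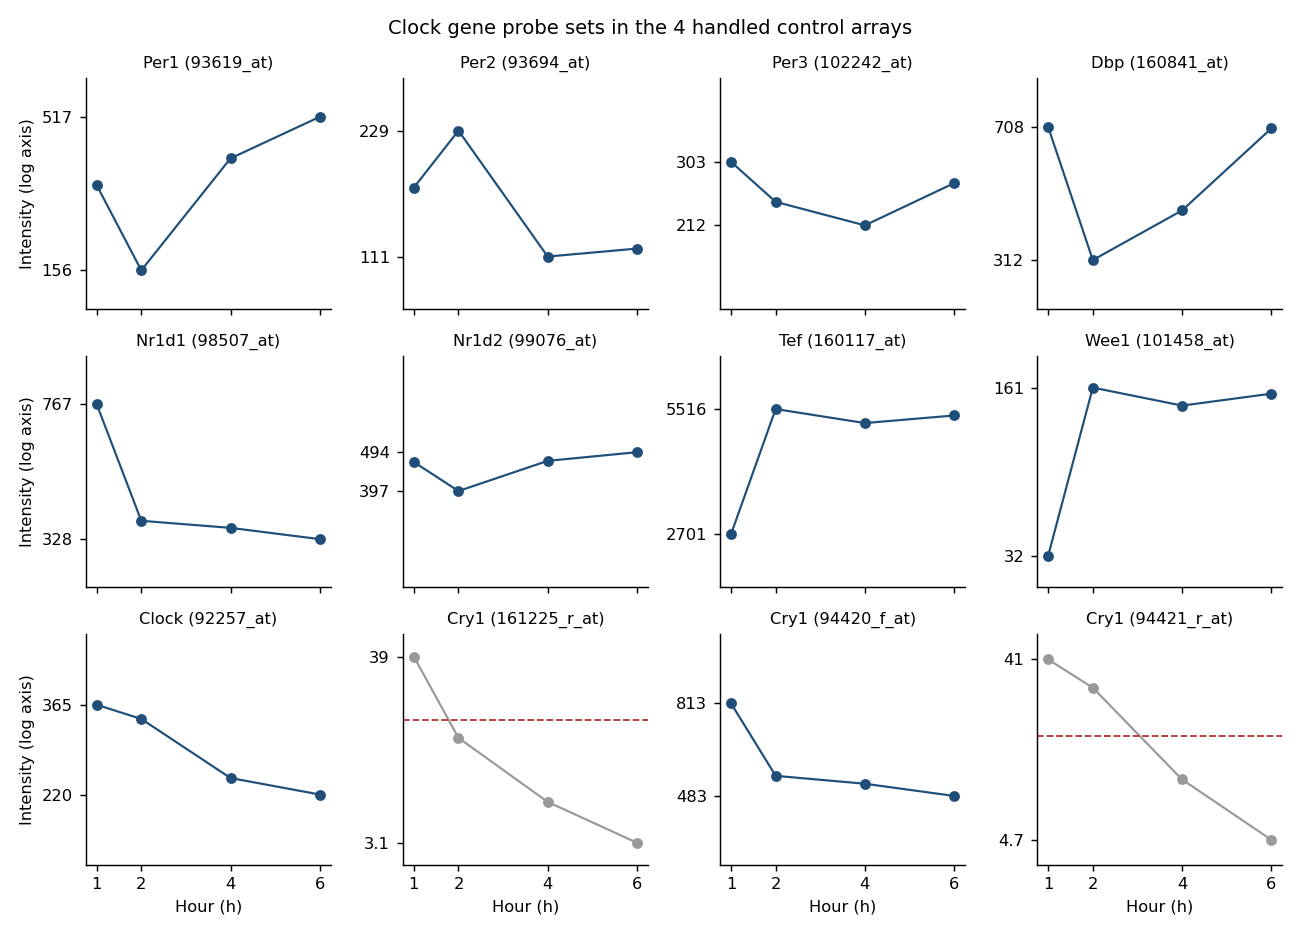
Intensity of each of the 12 clock gene probe sets (log axis, its own scale in each panel, lowest and highest values marked) against the hour, 1 point per array. Per1 and Dbp were lowest at 2 h, Tef and Wee1 at 1 h, Nr1d1 was high at 1 h, and the grey panels are probe sets too dim to be tested, with the floor of 16.4 as a dashed line.

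Counted at 2-fold or more against 1 h, 4 of the 10 tested clock probe sets differed at 2 h, with Tef and Wee1 higher and Dbp and Nr1d1 lower. Of all 7453 tested probe sets 9.79% did so (6.35% higher and 3.45% lower). At 4 h and again at 6 h the count was 2 of 10, Wee1 higher and Nr1d1 lower, where 8.41% and 9.34% of all differed. Since the 1 h array is the base of these counts, each later array was also compared with the average of the 2 remaining later ones. There 2 clock probe sets differed at 2 h (3.15% of all), namely Per1 and Per2, 0 at 4 h (3.15%) and 1 at 6 h (2.72%), namely Per1. None of these counts has a test, because each hour had 1 array.

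With each array compared with the 3 remaining ones, 2 of 10 clock probe sets were 2-fold apart at 1 h, Nr1d1 above and Wee1 below, beside 7.08% of all tested probe sets. At 2 h it was 1, Per1, at -1.32 on the log2 scale, beside 3.39% of all. At 4 h and 6 h it was 0 and 0, beside 2.82% and 2.76%, with Per1 at 6 h just inside the limit at 0.99. The span between highest and lowest array was 2-fold or more in 6 of 10, beside 18.5% of all, with a median of 2.05-fold for the clock probe sets and 1.46-fold for all. Without the 1 h array it was 3 of 10, Per1, Per2 and Dbp, beside 8.22% of all, and the medians were 1.26-fold and 1.27-fold. The SD of log2 intensity over the 4 arrays was smallest for Nr1d2 at 0.14 and largest for Wee1 at 1.12, with Per1 next at 0.73 and Dbp and Nr1d1 at 0.58 and 0.57.

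**Figure D3:**
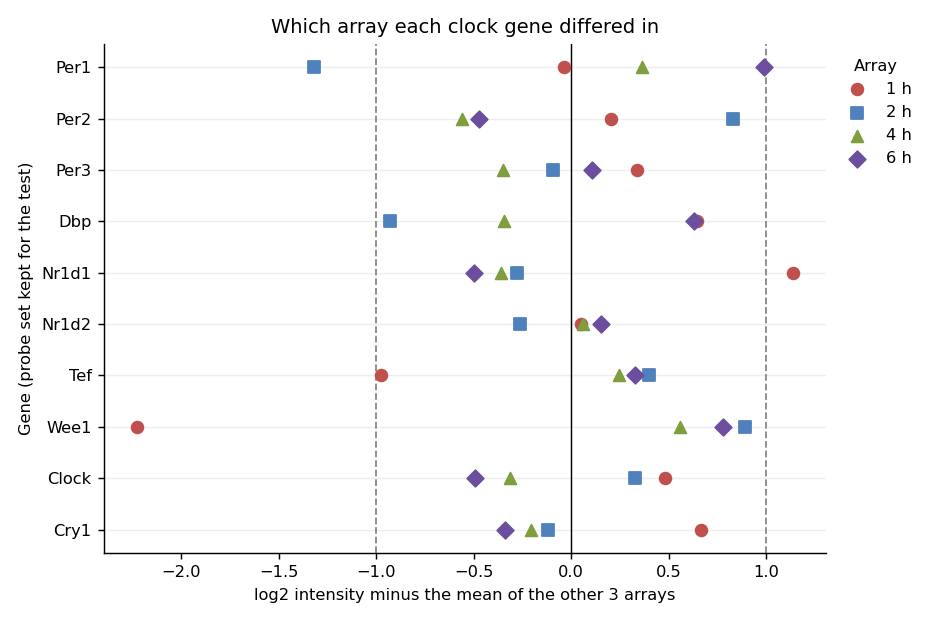
Difference in log2 intensity between each array and the mean of the other 3, for the 10 tested clock gene probe sets, with dashed lines at 2-fold. The point farthest from 0 is the 1 h array for Wee1, Tef, Nr1d1 and Cry1, and the 2 h array for Per1, Per2, Dbp and Nr1d2. For Dbp the 1 h and 6 h arrays lie on the other side of 0.

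The comparison of the hours was tested as a slope over the hour, fitted across all 7453 tested probe sets with limma. No clock probe set passed it, at a lowest adjusted p of 0.874 in limma, and 1 of all 7453 did (0.0134%), a probe set of the thyroid hormone carrier gene Ttr. The count over all probe sets was 0 with no filter, without the 4 h or the 6 h array, and where the variance prior had no intensity trend. At an unadjusted p under 0.05 there was 1 clock probe set, that of Clock, where 4.4% of all tested probe sets lay. After scaling all arrays to 1 median it was Per1 instead (unadjusted p = 0.0476 in limma, and 0.0792 for Clock). The slope of Clock was -0.16 ± 0.06 (SE) log2 units per hour (limma adjusted p = 0.874, unadjusted 0.0468), with a 95% interval from -0.31 to -0.003. The slope of Per1 was 0.24 ± 0.11, with an interval from -0.02 to 0.50, and that of Nr1d1 -0.20 ± 0.08, with an interval from -0.40 to 0.01. Wee1 had the largest slope and the widest interval, at 0.33 ± 0.20, from -0.14 to 0.80. The slopes of the other 6 lay between -0.16 (Per2) and 0.14 (Tef), each with an interval that held 0. Only the interval of Clock left out 0, and it did not pass after adjustment. Neither a slope nor its absence is thus shown for any of the 10. Of the 10 slopes 5 were negative, as were 53.5% of all, and the median was 0.0022 for the clock probe sets and -0.0063 for all.

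Without the 1 h array the slopes of Per1 and Dbp were the largest of the 10, at 0.43 ± 0.09 and 0.29 ± 0.07 log2 units per hour over 3 arrays. Their unadjusted p was 0.00106 and 0.0024 in limma, and after adjustment over all probe sets 0.563 and 0.649. Tef, Wee1 and Nr1d1 were near 0 there, at -0.013, -0.021 and -0.042. Clock kept nearly the same slope with and without that array, at -0.15 without it. This fit has 1 residual degree of freedom per probe set, and its SEs also draw on the spread of the other tested probe sets.

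**Figure D4:**
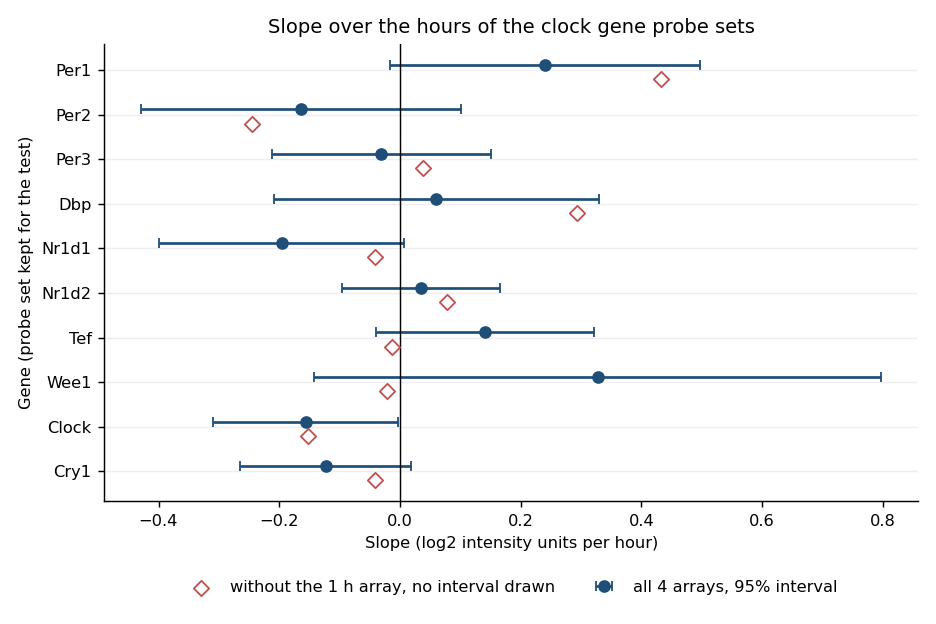
Slope of log2 intensity per hour for the 10 tested clock gene probe sets. Filled circles with bars are the limma slopes and 95% intervals over all 4 arrays, and open diamonds the slopes without the 1 h array. The slopes of Per1 and Dbp are larger without it and those of Wee1, Tef, Nr1d1 and Cry1 are close to 0.

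Likeness between the clock genes was measured as the root mean square difference of their log2 values, each centred on its mean over the 4 arrays. Of the 45 pairs, Clock and Cry1 were closest at 0.194, followed by Per3 and Nr1d2 at 0.199 and Nr1d1 and Cry1 at 0.206. The widest pair was Nr1d1 and Wee1 at 1.46. Per1 lay 0.419 from Dbp and 1.04 from Per2. Wee1 varied most among the arrays, and 39 of 6724 other tested probe sets lay within 0.2 of its pattern. The closest 5 were those of Ube2f (0.0511), Men1, Rangap1, Ensa and Rcc2 (0.101), each low at 1 h, such as Men1, the menin gene, at 98.3, 456, 381 and 451. These distances rest on 4 arrays and describe them only.

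Markers of some other cells moved over the same arrays. In the oligodendrocyte list, with 5 of 6 genes on the array and 9 of 10 probe sets kept, the summed intensity was 13032, 20100, 13290 and 13673 at 1, 2, 4 and 6 h, highest where Per1 and Dbp were lowest and Per2 highest. In the choroid plexus list, with 4 of 6 genes and 3 of 6 probe sets kept, it was 679, 816, 1758 and 3590 over all 6 probe sets. Ttr made up 225, 444, 1258 and 3009 of that sum. The kept probe set of Folr1 was also highest at 6 h, at 65.5, 63.1, 118 and 267. That of Kl was highest at 1 h, at 280, 109, 195 and 190, so the list did not rise as a whole. In the endothelial list, with 5 of 6 genes and 4 of 6 probe sets kept, the summed intensity was 1452, 1230, 1159 and 802. The sum ran in the order of Clock, Cry1 and Nr1d1, but the median centred log2 value of the 4 kept probe sets did not. That median was 0.305, 0.419, -0.051 and -0.548, highest at 2 h. The granule cell list summed to 7229, 7537, 7462 and 8119. The lists of astrocytes, interneurons, microglia and CA pyramidal cells moved less in median span. Their median spans were 1.28-, 1.21-, 1.45- and 1.45-fold, beside 1.46-fold for all tested probe sets. Over the 4 arrays 2 of 8, 0 of 6, 1 of 8 and 1 of 5 spanned 2-fold, beside 18.5% of all. Without the 1 h array 0 of their probe sets spanned 2-fold. Median spans of the oligodendrocyte, choroid plexus and endothelial lists were 1.88-, 4.23- and 2.11-fold, with 4 of 9, 3 of 3 and 3 of 4 at 2-fold. No marker was listed at 0, and the part of these cells in the clock gene values was not tested. In tissue RNA, fewer cells of a type and less RNA per cell cannot be told apart.

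The rest of the clock pathway gave no call. Of 30 further clock genes, 19 were on the array with 33 probe sets, of which 29 were tested, and 0 passed in either direction in limma, with 0 also at an unadjusted p under 0.05. Their median slope was 0.01, and 8 of 29 spanned 2-fold or more, beside 18.5% of all, and 3 without the 1 h array, beside 8.22% of all. Arntl, which encodes the partner of CLOCK, read 362, 483, 372 and 413 at 1, 2, 4 and 6 h, a span of 1.33-fold. Cry2, the relative of Cry1, read 188, 542, 324 and 383, lowest in the array in which Cry1 was highest. Npas2, which can stand in for CLOCK, read 25.1, 34.4, 117 and 30.5 and was too dim to be tested. All 3 were lowest at 1 h, the array that stood apart. Arntl and Cry2 shared the order of the arrays, with 2 h highest, then 6 h and 4 h. The share of all probe sets lowest at 1 h, or in that order, was not computed. Usp2, a ubiquitin protease and clock output, was lowest at 2 h on each of its 2 probe sets, at 2616, 1795, 2803 and 2664 on 1 and 2929, 1812, 2466 and 2477 on the other, in the array in which Per1, Dbp and Nr1d2, 3 of the 10, were lowest, as were 23.9% of all tested probe sets. Id2, a helix-loop-helix inhibitor, read 3975, 3630, 3529 and 3403. The probe sets of Usp2 and Id2 spanned less than 2-fold. The brightest probe sets of Noct, a deadenylase relative under clock control, and of Csnk1d, a kinase of the Per proteins, read 2593, 2913, 2669 and 3024, and 1726, 2718, 2368 and 2435. The largest slopes in this list were those of Fbxw11, which targets Per proteins for decay (0.25 ± 0.17), a dim probe set of Noct (-0.24 ± 0.13) and 1 of Csnk2a1, a casein kinase subunit (0.14 ± 0.09), all 3 at a limma adjusted p of 0.874. A second probe set of Fbxw11 had a slope of -0.07. Brighter tested probe sets of Csnk2a1 had slopes of -0.05 and -0.04, and brighter ones of Noct 0.03 and -0.05.

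Genes of the other routes to Per1 were read beside it. Of 15 glucocorticoid-responsive genes 14 were on the array and 18 probe sets were tested, 6 with positive and 12 with negative slopes, between -0.26 and 0.04 log2 units per hour, and 0 passed in limma, with 0 at an unadjusted p under 0.05. Of 19 immediate early genes 13 were on the array and 13 probe sets were tested, 10 with positive and 3 with negative slopes, between -0.09 and 0.12, and 0 passed in limma, also with 0 at an unadjusted p under 0.05. Over all tested probe sets 53.5% of slopes were negative. A 2-fold span over the 4 arrays was seen in 4 of the 18 glucocorticoid-responsive and 0 of the 13 immediate early probe sets, beside 18.5% of all. Without the 1 h array the counts were 3 and 0, beside 8.22% of all. The median spans there were 1.57-fold and 1.22-fold, beside 1.27-fold for all.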

How the data were processed

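Single-channel arrays of 4 handled control samples were analysed. The authors deposited intensity values on a linear scale, 1 per probe set and array; their software, scaling and detection calls are not given in the sources used here. Computed over all rows, the 2%-trimmed mean came to 500.3 for all 4 arrays, so a difference in total RNA does not show. The 66 control rows were set aside. Symbols came from the array annotation, updated through Entrez identifiers (GRCm38.p6 table, names only). Values under an intensity of 16.4 (10th percentile) were set to it before log2. Probe sets with a mean log2 of 6.66 or more (40th percentile) were kept, 7453 in all. Slopes over the hour were fitted with limma 3.58.1 in R 4.3.3 (eBayes with a trend, 2 residual degrees of freedom). Tests were two-sided, with Benjamini-Hochberg adjustment at 0.05 over 7453 probe sets. The fit was run on simulated data with the same SD for every probe set and independent noise on each array. That simulation held no array that stood apart, so it cannot vouch for the p-values given here. Differences between hours have no test. The number of arrays limits the precision. With 1 array per hour, the error behind each p-value is the departure of the arrays from a straight line over the hours. In limma that departure in the probe set itself is combined with the departures of the other tested probe sets of like intensity. Differences between mice, array quality and any change that is not linear enter that error together.

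The members, gene lists and settings were chosen with earlier results of these data known. Named were every member probe set, for other clock genes the 5 brightest and 3 steepest probe sets, Arntl, Npas2 and Cry2, the 5 probe sets most like the most variable member, Gapdh and granule cell markers. Markers of hypothalamus, Ttr, Folr1 and Kl were named after their values were seen. Alternatives were other scalings, filters and floors, each array left out, another time scale and another variance prior.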

Additional observations from a re-analysis of the deposited data

Results flagged for a closer look

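Dixon's gap test was applied to 24 groups of 4 array values. The groups were the clock gene probe sets, the named probe sets of other clock genes and the Gapdh ratio. In 4 of the 24, 1 array lay far from the other 3. A rate of about 1 in 20 holds for independent groups of normal values. These groups share the same 4 arrays, of which the 1 h array stood apart, and some were named for steep slopes. The share over all tested probe sets was not computed, so 4 of 24 is not shown to be an excess. Nr1d1 read 767 at 1 h, with a gap of 0.909 of the whole range to the next array, and its later values were 328 to 368. Tef read 2701 at 1 h, with a gap of 0.849, and 5092 to 5516 later. The Gapdh 3' to 5' ratio of 4.88 at 1 h, with a gap of 0.947, belongs to the same array, and its part in the values of Nr1d1 and Tef was not tested. Npas2 read 117 at 4 h, with a gap of 0.899, and 25.1 to 34.4 in the other arrays, below the level kept for testing. The brightest Cry1 probe set, with a gap of 0.825 from its 1 h value, came just short of the test's critical value.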

How the results depend on the processing

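No clock probe set and none of the other clock genes passed the slope test under any alternative run, leaving out each array included (0 to 0 calls). At an unadjusted p under 0.05 in limma the clock count of 1 moved to 5 without the 2 h array (Per1, Nr1d1, Tef, Wee1 and Cry1), where 13.4% of all probe sets lay, to 4 on log2 of the hour (8.95% of all), to 2 without the 1 h array (Per1 and Dbp; 5.23% of all), to 2 with no filter (Clock and a dim probe set of Cry1; 5.59% of all), and to 0 without the 4 h array (2.23% of all), without the 6 h array (3.09%) and with quantile normalization (3.85%). Slopes changed sign only where an array was left out: Dbp to -0.022 without the 2 h array and -0.18 without the 6 h array, and, without the 1 h array, Per3 to 0.038, Tef to -0.013 and Wee1 to -0.021. Over the 4 fits that each left out an array, the slopes ran from -0.18 to 0.29 for Dbp, from -0.16 to 0.038 for Per3, from -0.013 to 0.25 for Tef and from -0.021 to 0.58 for Wee1. Quantile normalization and the filter at the 60th percentile dropped Wee1 from the tested probe sets, and that filter also dropped Per2 and Per3. The 2-fold counts against 1 h were 1 at 4 h and 1 at 6 h under quantile normalization, 4 and 4 with no filter, where the dim Cry1 probe sets entered, and 1 and 1 at the 60th percentile. Against the other later arrays they were 2, 0 and 1 at 2, 4 and 6 h. The count of clock probe sets 2-fold from the other 3 arrays at 1 h was 1 under quantile normalization, 4 with no filter and 1 at the 60th percentile. At 6 h that count was 1 with arrays scaled to the same median. The clock probe sets counted were 9 under quantile normalization, 12 with no filter and 7 at the 60th percentile. The share of all probe sets was not computed for the 2-fold counts under these scalings and filters, so they have no background. No paired analysis was possible because each hour had 1 array. Depth does not apply to these arrays, and the signal limits Wee1 and the dim probe sets of Cry1 and Npas2.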
